A study of Mus musculus with 8 samples.

Results

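The exon junction complex (EJC) and its partners in nonsense-mediated decay were followed here through 10 genes, chosen by gene name: Eif4a3, Magoh, Magohb, Rbm8a and Casc3 of the EJC, and Upf1, Upf2, Upf3a, Upf3b and Smg1 of the decay pathway. Of these 10 genes, 9 have a locus of their own in the deposited tables, among 35494 loci at 1 h and 35541 at 8 and 24 h. Casc3 is merged with its neighbour Msl1 in all 3 tables, so no value below is a measure of Casc3 alone. Messenger RNA was sequenced from mouse retinal organoids at day 6 of differentiation, grown from a cell line that carries a GFP reporter at Rx and an FKBP12F36V-HA tag at the C-terminal end of both endogenous Mettl3 alleles. Through this degron, the added compound dTAG-13 brings the tagged METTL3 protein to degradation. The 8 samples form 4 groups with 2 replicates each, all of the same tagged genotype: untreated cells (0 h), and cells given dTAG-13 at 125 nM for 1, 8 or 24 h. All groups carry the tag, so effects of METTL3 loss and of dTAG-13 itself cannot be told apart.

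As background, the EJC is laid down by the spliceosome a short distance upstream of each exon-exon junction and travels with the mRNA to the cytoplasm. Its core is the RNA helicase EIF4A3, clamped on RNA by the dimer of MAGOH and RBM8A (Y14), with CASC3 as a further subunit. A ribosome that stops upstream of a remaining EJC can set off nonsense-mediated decay, in which UPF3 proteins and UPF2 link the complex to the helicase UPF1 and the kinase SMG1 phosphorylates UPF1. The EJC also keeps METTL3 from methylating adenosines near splice junctions, so that N6-methyladenosine (m6A) collects in long internal exons and last exons.

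Sequences are shown first where they bear on how the values can be read. MAGOH and MAGOHB are encoded by separate genes with very similar proteins, and a short read could be credited to the wrong copy if the transcripts were alike. The last 150 coding bases of each are given from the GENCODE M21 transcripts (GRCm38), bases 289 to 438 of Magoh and 295 to 444 of Magohb, with the 27 differing positions in capitals.
Magoh: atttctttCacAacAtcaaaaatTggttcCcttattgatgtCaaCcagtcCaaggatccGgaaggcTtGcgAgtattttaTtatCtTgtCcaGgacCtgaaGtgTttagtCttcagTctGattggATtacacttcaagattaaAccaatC
Magohb: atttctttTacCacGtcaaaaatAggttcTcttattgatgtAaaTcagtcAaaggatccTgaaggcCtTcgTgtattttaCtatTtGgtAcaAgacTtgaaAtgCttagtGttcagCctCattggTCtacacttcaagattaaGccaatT
Over all 438 aligned coding positions the genes were 81.3% identical at the DNA level, and the longest identical stretch was 17 bases. Any longer stretch of these aligned positions therefore tells the 2 genes apart. Upf3a and Upf3b were 63.1% identical over 1202 aligned positions, with a longest identical stretch of 15 bases.

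A second set of sequences shows the m6A context. GGACT is a common form of the motif in which METTL3 methylates the central adenosine, and it was searched on the transcript strand only. The 10 member transcripts hold 31 GGACT motifs, and 10 of them (32.3%) lie more than 100 bases from every exon junction. Over the 10955 expressed protein-coding genes the share was 57.3%, and 92.1% of those transcripts hold at least 1 GGACT. Of the 31 member motifs, the long Smg1 transcript alone supplies 14, of which 6 lie beyond 100 bases. Casc3 supplies 4, of which 2 lie beyond it. Magoh, Magohb and Upf3a hold none, and of the others Eif4a3, Rbm8a, Upf1 and Upf3b hold none beyond 100 bases. Motifs are given below in capitals in windows of 25 bases for the helicase genes Eif4a3 and Upf1 and for Rbm8a, where all lie close to a junction, and for Upf2, whose first coding motif does not. Smg8 encodes a regulator of SMG1 and Nxt1 an mRNA export factor. Their coding motifs are added because both genes rose at 8 and 24 h.
Eif4a3, coding, 44 bases from a junction, chr11:119294603-119294627, minus strand: tccggaagctGGACTacggacagca
Eif4a3, 3' UTR, 83 bases from a junction, chr11:119288464-119288488, minus strand: gggttgatatGGACTgtcttctcgg
Rbm8a, coding, 56 bases from a junction, chr3:96631476-96631500, plus strand: tgccatggaaGGACTaaatggtcaa
Rbm8a, coding, 39 bases from a junction, chr3:96631517-96631541, plus strand: caatcagtgtGGACTggtgttttgt
Upf1, coding, 69 bases from a junction, chr8:70338480-70338504, minus strand: ccaccagacaGGACTgaaggtcgta
Upf1, coding, 68 bases from a junction, chr8:70337150-70337174, minus strand: agccaaggccGGACTgtcacaatcg
Upf1, coding, 46 bases from a junction, chr8:70334702-70334726, minus strand: gccgggagaaGGACTtcatcattct
Upf2, coding, 182 bases from a junction, chr2:5961518-5961542, plus strand: tgacattgctGGACTtgtaccgagg
Smg8, coding, 1358 bases from a junction, chr11:87086341-87086365, minus strand: caggtccccaGGACTtcagtctttt
Smg8, coding, 1063 bases from a junction, chr11:87086046-87086070, minus strand: agccctggatGGACTgagacagaaa
Smg8, coding, 362 bases from a junction, chr11:87085345-87085369, minus strand: ggaaggaagaGGACTtgggctcccc
Smg8, coding, 368 bases from a junction, chr11:87080522-87080546, minus strand: attgtcatcaGGACTagagctgaag
Nxt1, coding, 381 bases from a junction, chr2:148675651-148675675, plus strand: acaaacagcgGGACTtcaaccagaa
Nxt1, coding, 468 bases from a junction, chr2:148675738-148675762, plus strand: tccggttccaGGACTgggccagcta
In Eif4a3, Rbm8a and Upf1 every GGACT sits within 100 bases of a junction, whereas in Smg8 and Nxt1 none does. This contrast covers genes picked with their changes known. Smg1, which did not change by the rule given below, has 6 motifs beyond 100 bases, 4 of them coding. In Pym1, also unchanged by that rule, all 4 motifs lie beyond 100 bases. The export gene Thoc5, lower at 8 and 24 h, has 4 motifs with 0 beyond 100 bases. Whether motif position goes with the change was not tested. These are matches in the sequence only: methylation was not measured in these tables.

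Each condition has 1 deposited value per gene that pools both replicates, so the spread between replicates is not visible and no test across replicates was possible. The error given is the interval deposited by the authors. Levels are in FPKM (sequenced fragments per transcript kilobase, corrected for depth), which compares genes per length, and each table was scaled on its own. A locus was called where, after adding 0.1 FPKM, the fold was 1.5 or more in either direction and the intervals were separate. A model SE of each log2 ratio was computed from the deposited variances of the estimated counts. Summed estimated counts per condition lay between 3.14e+07 and 3.26e+07, a scaled quantity that does not give library size. Mettl3 RNA was 19.4 FPKM (10.6 to 28.3) at 0 h and 17.0 (8.50 to 25.5) at 24 h, which does not test the depletion since the degron acts on protein. Of the eye field and retinal progenitor markers, 7 had a single locus in the 8 h table. These were at 18.1 to 142 FPKM at 0 h, while the 3 neural crest markers were at 0.0829 to 0.390 FPKM. Of 4 neuronal markers only 1, Dcx, had a locus of its own, at 0.262 FPKM. All 5 pluripotency markers were also detected, at 2.26 to 34.7 FPKM, with a summed level of 86.9 FPKM untreated and 81.5 after 8 h. Of 4 mesoderm and endoderm markers 1 reached 1 FPKM. Of 3 telencephalon markers 2 had a locus of their own, Emx2 at 20.7 FPKM, within the range of the eye field markers, and Dlx2 at 0.0407.

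Before treatment Magoh, Eif4a3 and Rbm8a had the highest levels of the 9 genes, while Magohb lay among the decay factors. In the 0 h column of the 8 h table, Magoh was highest at 190 FPKM (interval 153 to 226), above 96.5% of tested loci. Eif4a3 followed at 125 FPKM (101 to 150) and Rbm8a at 66.1 FPKM (52.0 to 80.2). These 3 levels differed from each other beyond their intervals. Upf3b, the X-linked UPF3 gene, came next at 36.9 FPKM (28.4 to 45.3), below Rbm8a and again with no overlap. From there on each gene overlapped the next: Smg1 at 27.6 FPKM (18.9 to 36.3), Magohb at 24.1 (18.3 to 30.0), Upf2 at 20.6 (16.5 to 24.7), Upf3a at 19.3 (15.3 to 23.3) and Upf1 at 16.5 (13.1 to 19.8). Neighbours in this order could not be ranked, but Upf3b lay above Upf2, Upf3a and Upf1 with no overlap of intervals. Upf1 had the lowest value of the 9 while still above 57.8% of tested loci. The same untreated libraries gave values in the 24 h table that were 1.00 times those in the 8 h table for all 9 genes. In the 1 h table they were between 0.970 and 0.988 times as high for 8 of them and 1.06 times for Upf3b.

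**Figure D1:**
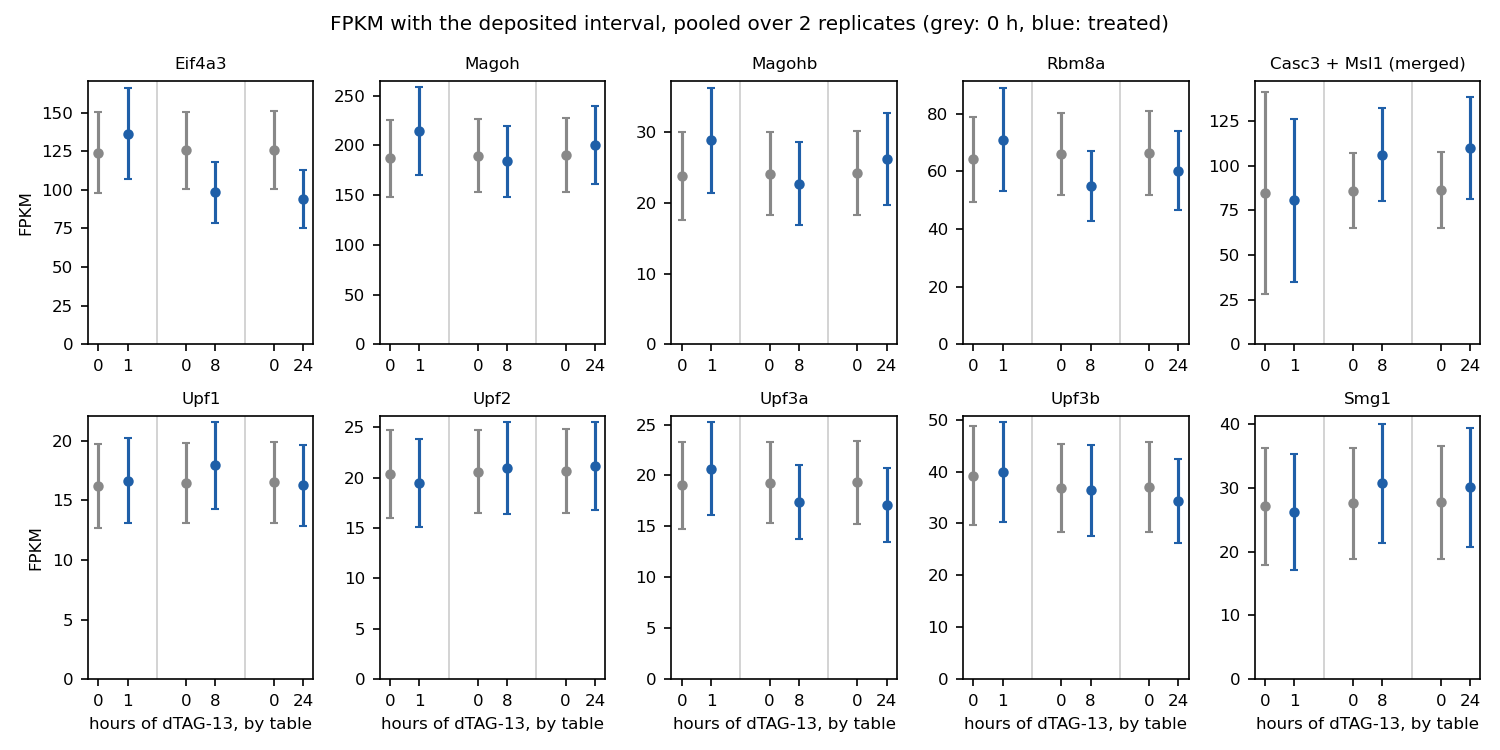
FPKM of each gene (vertical axis, from 0) at 0 h (grey) and after 1, 8 or 24 h of dTAG-13 (blue) in the 3 tables, which were scaled separately; bars are the deposited intervals, and each point pools 2 replicates. The bars of treated and untreated values overlap in every panel, including the merged locus of Casc3 and Msl1.

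No member changed at any time by the rule above. The count was 0 of 9 genes at each of the 3 times. Among all tested loci, the calls at 1 h made up 0.402% of 13690 (0.117% higher, 0.285% lower), those at 8 h 4.43% of 13825 (3.49% higher, 0.94% lower) and those at 24 h 5.48% of 13910 (3.83% higher, 1.65% lower). A count of 0 among 9 genes is near this background. The intervals of all 9 genes overlapped at every time, whereas they were separate, at any fold, for 0.402%, 4.56% and 5.51% of tested loci. All 9 passed the filter of 1 FPKM at each time, with 327 to 11137 estimated counts per condition. The 9 genes had median log2 ratios of 0.12, -0.04 and -0.02 after 1, 8 and 24 h, against 0.01, 0.01 and 0.02 over all tested loci. The width of the intervals sets what could have been seen. With the relative width of its 0 h interval in both conditions, a gene's intervals would separate only past a fold of 1.48 to 2.03, depending on gene and table, with Magoh needing the least and Smg1 the most.

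Eif4a3, which encodes the RNA-clamping helicase of the complex, had the ratio farthest from 0. Its FPKM was 124 (97.7 to 150) at 0 h and 136 (107 to 166) at 1 h, a log2 ratio of 0.14 with a model SE of 0.21. In the 8 h table it was 125 (101 to 150) before and 98.4 (78.5 to 118) after, a log2 ratio of -0.35 (SE 0.19). In the 24 h table it was 126 (101 to 151) before and 94.1 (75.2 to 113) after, a log2 ratio of -0.42 (SE 0.20). The lower values at 8 and 24 h were 0.784 and 0.747 times the untreated level, with intervals that still overlapped it. Of tested loci, 12.6% had a lower ratio at 8 h, and 11.6% at 24 h. Eif4a3 is singled out as the member farthest from 0, so a place toward one end is partly set by that choice. Estimated counts gave the same picture, 5122 against 3985 at 8 h and 5070 against 3783 at 24 h. The gene lies on chromosome 11 at 119288363 to 119300089 on the minus strand (GRCm38). The intronless copies Gm5580 and Gm8994, which resemble Eif4a3, were at 0.358 to 0.565 FPKM in all columns, far below the parent gene. The summed level of the eye field and retinal progenitor markers also differed, with 557 FPKM untreated and 696 after 8 h, and 559 untreated and 748 after 24 h. Of these markers Rax and Lhx2 were called higher at 24 h. Its part in the ratio of Eif4a3 was not tested, and in bulk RNA fewer cells of a type and less RNA per cell cannot be told apart.

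Magoh, which encodes the partner that locks the helicase, stayed near its untreated level. Its FPKM was 187 (148 to 226) untreated and 214 (170 to 259) after 1 h, 190 (153 to 226) and 184 (148 to 220) in the 8 h table, and 190 (153 to 227) and 201 (161 to 240) in the 24 h table. The log2 ratios were 0.20, -0.04 and 0.08 at 1, 8 and 24 h, with SEs of 0.20 to 0.21. Magohb, its paralog on chromosome 6, had 23.8 FPKM (17.6 to 30.0) at 0 h and 28.8 (21.4 to 36.2) at 1 h, a log2 ratio of 0.27 (SE 0.25). The 8 h table gave 24.1 FPKM (18.3 to 30.0) untreated and 22.7 (16.8 to 28.6) treated, and in the 24 h one the values were 24.2 (18.3 to 30.1) and 26.2 (19.7 to 32.7). Its log2 ratios at these times were -0.09 and 0.11. Magohb made up 11.3% of the summed Magoh and Magohb FPKM at 0 h in each table, and 11.8%, 10.98% and 11.5% after 1, 8 and 24 h, so the balance of the paralogs was much the same throughout.

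Rbm8a, which encodes the dimer partner of MAGOH, had 64.1 FPKM (49.3 to 78.9) untreated and 71.0 (53.1 to 88.9) after 1 h. It was at 66.1 (52.0 to 80.2) and 55.0 (42.9 to 67.2) in the 8 h table, and at 66.3 (51.8 to 80.8) and 60.1 (46.5 to 73.8) in the 24 h table. The log2 ratios of 0.15, -0.26 and -0.14 (SEs 0.21, 0.19 and 0.20) had the same signs as those of Eif4a3, and the intervals overlapped at each time. The 4 core genes with their own locus were all above 0 at 1 h and all below 0 at 8 h, where 51.6% and 51.3% of all tested loci were above 0. At 24 h, 2 were above and 2 below. These signs share the untreated libraries and rest on differences smaller than the intervals.

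The ratio of Magoh to Eif4a3 levels was computed after these values had been seen. In FPKM it was 1.51 untreated in each table, then 1.57, 1.87 and 2.13 after 1, 8 and 24 h. The log2 change of this ratio was 0.06 (SE 0.30) at 1 h, 0.31 (SE 0.28) at 8 h and 0.50 (SE 0.28) at 24 h. The shift at 24 h is under 2 of its model SEs. The ratio of Rbm8a to Eif4a3 was 0.527 at 0 h in the 24 h table and 0.640 at 24 h, a log2 change of 0.28 (SE 0.28).

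The locus that merges Casc3 with Msl1 had 84.9 FPKM (28.4 to 141) untreated and 80.7 (35.1 to 126) after 1 h. In the 8 h table it was at 86.1 (65.2 to 107) before and 106 (80.2 to 132) after, and in the 24 h table at 86.4 (65.1 to 108) and 110 (81.1 to 139). The log2 ratios were -0.07, 0.30 and 0.35, all with overlapping intervals. The wide interval at 1 h goes with a locus that spans 98795516 to 99024254 on chromosome 11 in that table and ends at 98833814 in the others. How much of this signal comes from Casc3, which encodes the cytoplasmic EJC subunit, was not determined.

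The log2 ratios of the 5 decay factors lay between -0.18 and 0.15 over the 3 times. Upf1, the ATP-driven helicase at the centre of the pathway, was at 16.2 FPKM (12.7 to 19.7) and 16.7 (13.1 to 20.2) in the 1 h table, 16.5 (13.1 to 19.8) and 17.9 (14.3 to 21.6) in the 8 h table, and 16.5 (13.1 to 19.9) and 16.3 (12.9 to 19.6) in the 24 h table. Its log2 ratios were 0.04, 0.12 and -0.02, each with a model SE of 0.21 to 0.22. The Upf1 locus of the tables extends 15806 bases beyond the annotated gene and overlaps a locus of Cers1 and Gdf1 at 2.74 FPKM, which makes its estimate less certain. Upf2, the bridge between UPF1 and UPF3, was at 20.4 FPKM (16.0 to 24.7) and 19.5 (15.1 to 23.9), then 20.6 (16.5 to 24.7) and 21.0 (16.4 to 25.6), then 20.7 (16.5 to 24.9) and 21.2 (16.8 to 25.5), in the same order of tables. Its log2 ratios of -0.06, 0.02 and 0.03 stayed close to 0, with overlapping intervals.

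The paralogs Upf3a and Upf3b both encode EJC-binding adaptors, of which UPF3B is the stronger activator of decay. Upf3a was at 19.0 FPKM (14.7 to 23.3) and 20.7 (16.1 to 25.2) in the 1 h table, 19.3 (15.3 to 23.3) and 17.4 (13.8 to 21.0) in the 8 h table, and 19.3 (15.3 to 23.4) and 17.1 (13.4 to 20.7) in the 24 h table. Upf3b was at 39.2 FPKM (29.7 to 48.8) and 39.9 (30.2 to 49.5), then 36.9 (28.4 to 45.3) and 36.4 (27.6 to 45.2), then 37.0 (28.3 to 45.7) and 34.3 (26.1 to 42.4). Log2 ratios were 0.12, -0.15 and -0.18 for Upf3a and 0.02, -0.02 and -0.11 for Upf3b, and no pair of intervals separated. Upf3a made up 34.3% of their summed FPKM at 0 h in the 8 and 24 h tables, 32.3% at 8 h and 33.2% at 24 h. In the 1 h table the share was 32.7% before and 34.2% after treatment. By estimated counts, which are not per length, its share was 30.7% at 0 h in the 8 h table.

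Smg1, the large kinase that phosphorylates UPF1, has 63 exons and held the most estimated counts of the 9 genes, 9205 to 11137 per condition. It was at 27.1 FPKM (17.9 to 36.3) and 26.2 (17.2 to 35.2) in the 1 h table, 27.6 (18.9 to 36.3) and 30.7 (21.4 to 40.1) in the 8 h table, and 27.7 (18.9 to 36.5) and 30.1 (20.7 to 39.4) in the 24 h table. Log2 ratios were -0.05, 0.15 and 0.12. Despite its counts, Smg1 had the widest FPKM intervals of the members in relative terms, up to 34.0% to each side of the 0 h value.

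**Figure D2:**
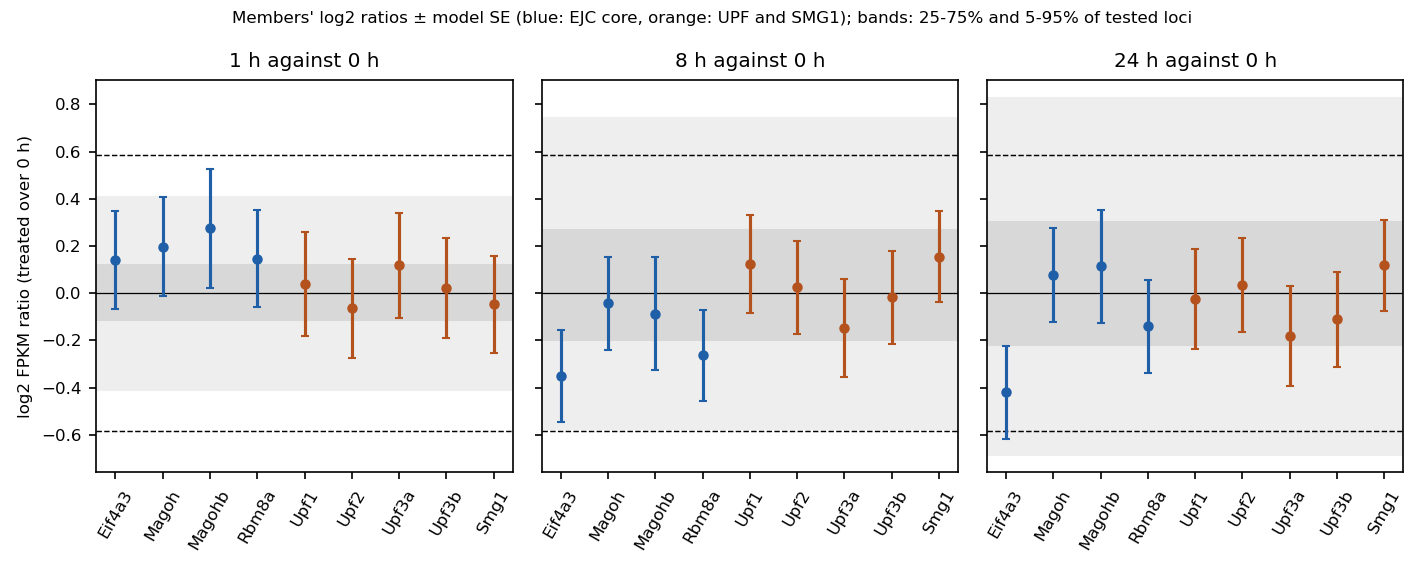
Log2 FPKM ratio of each of the 9 genes at 1, 8 and 24 h (points, with bars of 1 model SE), with EJC core genes in blue, UPF genes and Smg1 in orange, grey bands for 25 to 75% and 5 to 95% of all tested loci and dashed lines at 1.5-fold. No point reaches a dashed line, and Eif4a3 is the lowest at 8 h (-0.35) and 24 h (-0.42).

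Because no member was called, the genes most like the member with the largest ratio at 24 h, Eif4a3, were looked up by the distance between log2 ratios at the 3 times, over 8512 single-gene loci of at least 5 FPKM. The nearest were Ndufv1 (distance 0.01; log2 ratios 0.14, -0.36 and -0.41), Lyar (0.02; 0.16, -0.33 and -0.42) and Hspa4 (0.03; 0.16, -0.33 and -0.41). The 3 ratios share the untreated libraries, so the likeness describes these tables only.

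Exon layout differed between the EJC genes with a locus of their own and the decay factors, but Casc3 did not follow this split. Junction density, the number of coding exon junctions per kilobase of coding sequence, was 8.92 in Eif4a3, 9.13 in Magoh, 9.01 in Magohb and 9.58 in Rbm8a, against a median of 6.16 over 10955 expressed genes (quartiles 3.85 and 7.83). The decay factors lay near that median, with 5.25 in Upf2, 5.65 in Smg1, 6.32 in Upf3a, 6.36 in Upf3b and 6.52 in Upf1. In Magoh, Magohb and Rbm8a no coding base lies more than 100 bases from a junction, which holds for 10.9% of expressed genes. The share of such coding bases was 5.60% in Eif4a3, 4.39% in Upf1, 8.99% in Smg1, 14.4% in Upf3b, 22.1% in Upf2 and 23.4% in Upf3a, beside a median of 14.2% over all. The longest internal exon was 142 bases in Eif4a3 and 111 in both Magoh and Magohb, while Upf2 has one of 780 bases. Last exons had 197 bases in Eif4a3, 248 in Magoh and 341 in Magohb, but 2103 in Rbm8a, against a median of 1357. Those of the decay factors ran from 955 bases in Upf1 to 4311 in Smg1. Of all Rbm8a transcript bases, untranslated ones included, 76.9% lie more than 100 bases from a junction, against a median of 58.9%. Casc3, not measured on its own, has 5.73 junctions per kilobase, an internal exon of 680 bases and 29.8% of its coding bases beyond 100 bases from a junction.

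Each member was then set beside genes of like junction density, with all expressed genes split into 10 equal groups. At 8 h, the median log2 ratio ran from 0.41 in the group of lowest density to -0.13 in that of highest density, and at 24 h from 0.37 to -0.11. At 8 h, 8 of the 9 members lay between the quartiles of their own group, as 50% of a group's genes do by construction. Eif4a3 lay outside, at -0.35 in a group with a median of -0.12 and quartiles of -0.27 and 0.03. Among genes of at least 5 FPKM, Upf1 (0.12) was also above the upper quartile of its group (0.10), which left 7 of 9 members inside. At 24 h, 6 of 9 lay between the quartiles: Eif4a3 was below them (-0.42 against quartiles of -0.29 and 0.07), and Magoh and Magohb were slightly above. The other 6 were within 0.13 of their group's median. At 1 h the group medians ran only from -0.02 to 0.04, and 4 of 9 members were between the quartiles, with all 4 core genes and Upf3a above them. These were not tests, and they share the untreated libraries.

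**Figure D3:**
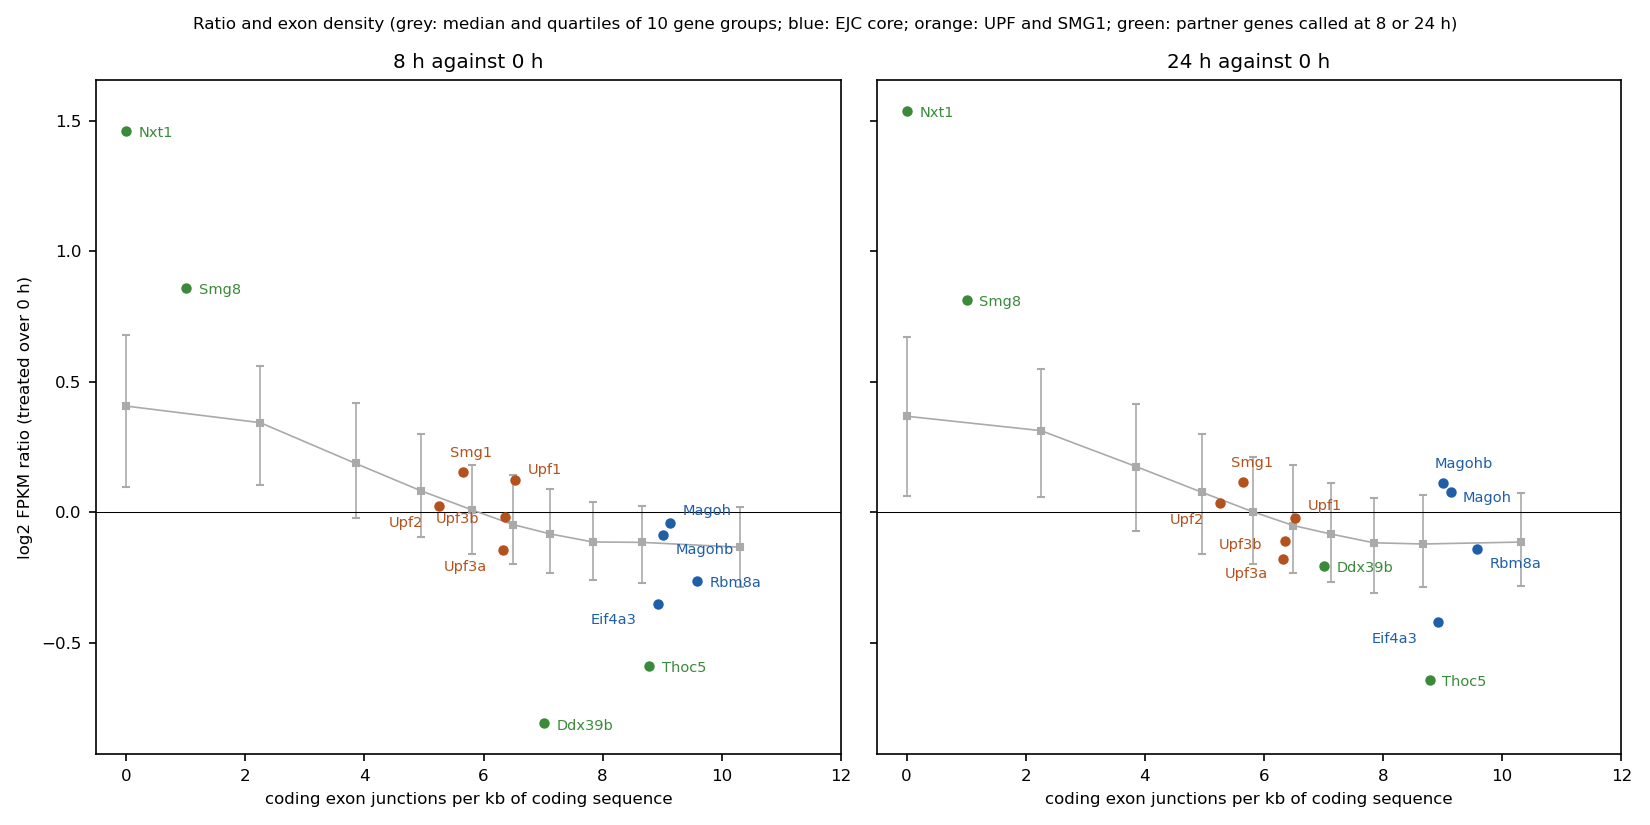
Log2 FPKM ratio at 8 and 24 h (vertical axis) against coding exon junctions per kilobase of coding sequence (horizontal axis); grey squares and bars are the median and quartiles of 10 equal gene groups, drawn at each group's median density. The EJC genes with their own locus sit at the dense end and the UPF genes and Smg1 in the middle, and Casc3 is not drawn. Eif4a3 lies below its group's quartiles at both times, and Magoh and Magohb lie above theirs at 24 h. The partner genes Nxt1 and Smg8 sit high at the sparse end, above the quartiles of their group at both times. Thoc5 lies below its group's quartiles at both times, and Ddx39b lies below its own at 8 h but between them at 24 h.

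Other genes of the pathway were taken from 4 lists of textbook members. Of 16 further decay factors, all tested, 0 were called at 1 h, and 1 was called higher and 0 lower at both 8 and 24 h. Their median log2 ratios were 0.00, -0.06 and -0.15. The gene that rose was Smg8, whose product keeps the SMG1 kinase in check. It was at 13.6 FPKM (10.6 to 16.5) and 16.8 (13.2 to 20.4) in the 1 h table, at 13.7 (10.99 to 16.5) and 24.98 (20.1 to 29.8) in the 8 h table, and at 13.8 (10.98 to 16.6) and 24.3 (19.5 to 29.1) in the 24 h table. The log2 ratio was 0.30 at 1 h, where intervals overlapped, 0.86 (SE 0.20) at 8 h and 0.81 (SE 0.20) at 24 h. Smg8 has 3 coding junctions in 2973 coding bases, and 81.6% of these bases lie beyond 100 bases from a junction. Background calls in the higher direction were 3.49% of loci at 8 h and 3.83% at 24 h. Over genes with more than 75% of coding bases so placed, 16.4% were called higher at 8 h and, counted separately, 16.4% at 24 h. The lowest of the list at 24 h were Ruvbl2 (-0.54) and Ruvbl1 (-0.46), ATPases that assemble SMG1-type kinases, and Gspt2, a release factor gene, stood second highest at 0.22. None of these 3 was called.

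Among proteins at the periphery of the EJC, 7 of 8 genes were tested and 0 were called at each time, with Srrm2 merged with another gene. Of all tested loci, 0.402%, 4.43% and 5.48% were called at 1, 8 and 24 h, so a count of 0 among 7 is near this background. The median log2 ratios of the 7 genes were 0.13, -0.08 and -0.06. Pym1, which encodes the factor that strips EJCs from translated mRNA, was at 36.0 FPKM (28.6 to 43.3) before and 51.9 (41.7 to 62.1) after 8 h, and at 36.1 (28.6 to 43.6) before and 52.1 (41.6 to 62.6) after 24 h. Its log2 ratio was 0.53 at both times, just below 1.5-fold. Rnps1, a splicing and decay cofactor, was at -0.52 and -0.53, with 106 FPKM (83.8 to 129) untreated and 74.0 (57.8 to 90.2) after 8 h. The intervals of both genes overlapped. At 24 h Srrm1 was at -0.19 and Cwc22, which recruits EIF4A3 to the spliceosome, at 0.17.

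Of 12 cap-binding, export and related genes, all tested, 0 were called at 1 h, 1 higher and 2 lower at 8 h, and 1 higher and 1 lower at 24 h. The share of all loci called in the higher direction was 3.49% after 8 h and 3.83% after 24 h, and in the lower direction 0.94% and 1.65%. The median log2 ratios were 0.06, -0.21 and -0.17. Nxt1, the small partner of the export receptor NXF1, rose to 163 FPKM (132 to 194) after 8 h, against 59.2 (47.4 to 71.0) untreated. After 24 h it was at 173 FPKM (139 to 206), against 59.4 (47.3 to 71.5). Its log2 ratios were 0.17 at 1 h, 1.46 (SE 0.20) at 8 h and 1.54 (SE 0.20) at 24 h. The coding sequence of Nxt1 has 0 junctions. Its group, that of lowest junction density, had a median of 0.41 and an upper quartile of 0.68 at 8 h. At 24 h these were 0.37 and 0.67. Whether the lack of junctions goes with the rise of Nxt1 was not tested. Thoc5, of the THO export complex, fell to 22.7 FPKM (18.1 to 27.2) after 8 h, against 34.1 (27.4 to 40.8) untreated, a log2 ratio of -0.59 (SE 0.20), and had a ratio of -0.64 at 24 h. At 8 h the call of Thoc5 was lost on estimated counts with 1 count added and intervals of 2 deposited SDs (-0.58) and with 1 FPKM added (-0.57). Ddx39b, which encodes the export helicase UAP56, fell to 144 FPKM (116 to 173) after 8 h, against 253 (205 to 302) untreated, a log2 ratio of -0.81 (SE 0.19), and was at -0.21 at 24 h with overlapping intervals. Whether 8 and 24 h differ was not tested. Ncbp1 (-0.43) and Ncbp2 (0.28), the cap-binding subunits, were among the extremes at 24 h without being called.

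Transcripts known to be degraded by nonsense-mediated decay give only a partial view of the pathway's substrates here. Of 17 listed, 12 were tested. Gas5, Snhg1, Snhg15 and Zfas1 had no locus of that name, and Ddit3 was merged with another gene. At 1, 8 and 24 h 0 of the 12 were called, while 0.402%, 4.43% and 5.48% of all tested loci were. A count of 0 among 12 genes is near this background. The median log2 ratios of the 12 were 0.14, -0.15 and -0.03. The stress gene Gadd45b was at 12.1 FPKM (8.89 to 15.2) and 7.56 (5.49 to 9.64) in the 1 h table and at 12.3 (9.24 to 15.3) and 17.2 (13.3 to 21.1) in the 24 h table, log2 ratios of -0.67 and 0.49 with overlapping intervals. Atf4 was at -0.45, 0.13 and -0.25, and Atf3 at -0.12, -0.14 and 0.17, the last of which was -0.19 on estimated counts. Hnrnpl, which limits its own level through a decay-prone isoform, was at 272 FPKM (195 to 349) before and 158 (117 to 198) after 8 h. That log2 ratio of -0.79 passed on estimated counts with intervals of 2 deposited SDs (-0.80) but not on FPKM, where the deposited intervals just met, and it was -0.27 at 24 h. Gene-level values pool productive and decay-prone isoforms, so these numbers do not measure decay itself.

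**Figure D4:**
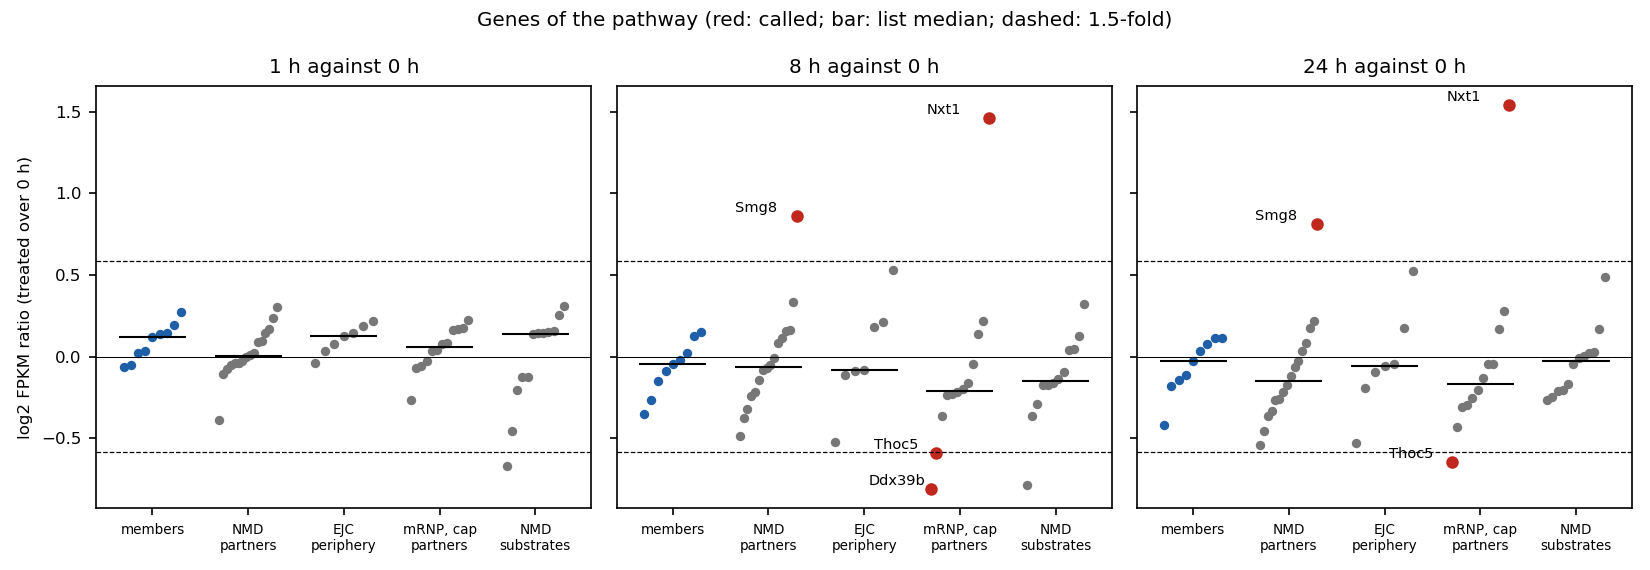
Log2 FPKM ratio of the 9 members (blue) and of the tested genes of 4 related lists (grey) at 1, 8 and 24 h; horizontal bars are list medians, dashed lines mark 1.5-fold, and red points are called genes with their names. Called genes are Smg8, Nxt1, Thoc5 and Ddx39b at 8 h and the first 3 of these at 24 h, with none among the members.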

How the data were processed

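Per the labels, 8 samples of polyadenylated RNA were sequenced in paired-end mode. The submitters' processing notes list Cufflinks 2.2.1, Cuffdiff and mm10, without their roles. The authors deposited 3 pairs of tables (0 h with 1, 8 or 24 h), holding FPKM with lower and upper bounds, and estimated counts with their variance, per the file headers, with 1 pooled column per condition. The aligner, annotation, strandedness and interval level are not given in the sources used here. Within each table, 0.1 FPKM was added to both conditions before the log2 ratio was taken, so that ratios of weakly expressed genes are drawn toward 0. Loci of at least 1 FPKM in 1 condition with status OK in both were tested. No edgeR or DESeq2 fit was made, since replicates are pooled, and 0 columns hold single replicates. The model SE treats both conditions as independent. GENCODE M21 (GRCm38, the assembly of mm10) supplied gene coordinates and transcripts, by APPRIS rank and then coding length. Locus starts in the tables were read as 0-based. Python 3.11.15 with pandas 2.3.3 was used. The interval rule was tested on simulated data.

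The members and lists were chosen with earlier results of these data known. Named genes are all 10 members, each list's called genes and its 2 highest and 2 lowest at 24 h, and 3 genes nearest the member with the largest ratio. List genes merged with others, or with no locus of that name, were not analysed here. Alternatives changed the scale, pseudocount, filter, fold, interval and centring.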

Additional observations from a re-analysis of the deposited data

How the results depend on the processing

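Under 9 alternatives at 3 times (243 values), 0 ratios of the 9 members were called and each stayed within 1 model SE of its main value. Changes of filter, fold or interval leave a member's ratio as it is. Only the change to estimated counts, the pseudocounts and the centring could move it. A 2-fold criterion or a filter of 5 FPKM could not add a call among the members. No paired analysis was possible because the deposited columns pool both replicates and carry no replicate number. Leaving out a replicate was not possible either. With 5 FPKM required, 30 loci were called at 1 h in place of 55, and with no filter 95. A 1.5-fold criterion without intervals called 707, 1896 and 2371 loci at 1, 8 and 24 h, and 1 NMD-sensitive transcript at 1 h (Gadd45b) and 1 at 8 h (Hnrnpl), in place of 0. Estimated counts with 1 added and intervals of 2 deposited SDs, which change the scale and the interval together, called 1 (Hnrnpl) at 8 h. A 2-fold criterion called 217 loci at 8 h and 297 at 24 h, in place of 612 and 762. It left 0 decay partners and 1 export or cap gene (Nxt1) at both times. Counting a base as far from a junction at 200 bases was a limit added after seeing the data. It gave 0% of coding bases in Eif4a3, Magoh, Magohb, Rbm8a and Upf3b, and 68.3% in Smg8. The other members had 0.474% (Upf1), 0.638% (Smg1), 7.58% (Upf3a), 9.98% (Upf2) and 14.1% (Casc3). The median over expressed genes was 0.762%. Estimated counts gave Upf3a 30.7% of the pair at 0 h and 29.6% at 24 h. The log2 change of Magoh over Eif4a3 was 0.49 at 24 h in estimated counts. The member with the fewest estimated counts, Magohb, had the largest model SE of the ratio at each time, 0.24 to 0.25.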
